A study of Mus musculus with 39 samples.

Results

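The regions described here are the gaps between replication timing (RT) domains of the autosomes in R1 mouse embryonic stem (ES) cells. RT domains are long stretches that replicate either early or late in S phase, and a gap is any stretch of more than 0 bp between the end of an RT domain and the start of the next. The gaps were chosen by the RT list itself, from the places of the domains and the signs of their RT values, so their number, class and length are a description. On chromosomes 1 to 19 there were 1617 RT domains, 768 early and 849 late, and 1598 pairs of neighbours. Of these pairs, 421 were separated by a gap (26.3%) and 1177 touched. The gaps summed to 98.2 Mb, 3.99% of the 2463 Mb of these chromosomes. By the signs of their neighbours, 136 gaps were early-early, 235 late-late and 50 mixed.

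The cells were wild type and untreated apart from the labelling. For RT, cells were pulse labelled with BrdU, a thymidine analogue that marks newly made DNA, and sorted by DNA content into the fractions S1 to S4, 8 libraries from 2 experiments; the RT value is the log2 ratio of the earlier to the later fractions, positive in early domains and negative in late ones. Nucleosome wrapping domains (NRDs) came from H3 wrapping-seq, 4 libraries from 2 experiments, in which nucleosomes are released with MNase, recovered with an antibody against histone H3 and sized by paired-end sequencing. Tight NRDs (TiNRDs, 561 on the autosomes) have a positive wrapping index, with relatively more long protected fragments, and loose NRDs (LoNRDs, 525) a negative one. S-phase fractions average over all cells of the culture. Both lists give 1 value per domain and no replicates or read numbers, so the spread between libraries and the depth behind a gap are unknown. All comparisons below are over regions of these lists, which are not replicates, and no test of chance was made.

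As background, mammalian chromosomes are copied in a set order. Gene-dense chromatin with many CpG islands, the stretches of dense CG pairs at many gene starts, is copied early in S phase, and gene-poor, A/T-rich chromatin at the nuclear edge is copied late. Neighbouring domains of opposite timing are joined by transition regions that forks cross in the middle of S phase, and in ES cells the timing of many domains differs from that in differentiated cells.

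Sequences around gene starts are shown first, because the gaps differed from their surroundings in CG pairs and gene starts. Each has 300 bases in the direction of transcription, with CG pairs in capitals, and is taken from the RefSeq promoter table of GRCm38.p6 (250 bases before the start and 50 after it). Over 15687 promoters of autosomal protein-coding genes in this table the median was 15.0 CG pairs (quartiles 4 and 25), and 95.2% held at least 1. For the longest gaps with a gene start, by class and wrapping domain, the promoters of the first genes found in the table were those of Gm2026 (early-early, LoNRD), Hhat, which encodes Hedgehog acyltransferase (late-late, TiNRD), Ttc12 (mixed, TiNRD) and the zinc finger gene Zfp947 (mixed, LoNRD). In the early-early gap with a TiNRD the genes had no entry, and the 300 bases at its midpoint are shown.
Gm2026 (chr2:175965105-175965404, plus strand, 4 CG pairs): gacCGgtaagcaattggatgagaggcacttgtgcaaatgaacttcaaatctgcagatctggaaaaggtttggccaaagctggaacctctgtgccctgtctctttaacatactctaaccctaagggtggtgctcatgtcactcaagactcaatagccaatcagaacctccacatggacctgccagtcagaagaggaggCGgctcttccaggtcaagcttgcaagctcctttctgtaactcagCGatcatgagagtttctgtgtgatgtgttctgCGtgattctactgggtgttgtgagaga
Hhat (chr1:192771170-192771469, minus strand, 6 CG pairs): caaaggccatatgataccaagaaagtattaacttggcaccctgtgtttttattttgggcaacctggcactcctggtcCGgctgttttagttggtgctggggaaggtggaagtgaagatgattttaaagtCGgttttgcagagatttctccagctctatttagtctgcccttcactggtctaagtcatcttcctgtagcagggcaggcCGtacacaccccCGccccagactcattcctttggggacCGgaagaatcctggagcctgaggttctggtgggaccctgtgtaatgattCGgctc
Ttc12 (chr9:49486176-49486475, minus strand, 14 CG pairs): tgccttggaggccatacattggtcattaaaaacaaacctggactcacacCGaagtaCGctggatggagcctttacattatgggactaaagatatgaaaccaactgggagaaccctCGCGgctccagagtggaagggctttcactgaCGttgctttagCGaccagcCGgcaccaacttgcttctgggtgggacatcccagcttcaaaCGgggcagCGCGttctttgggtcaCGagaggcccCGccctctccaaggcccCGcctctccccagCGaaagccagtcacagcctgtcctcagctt
Zfp947 (chr17:22165928-22166227, minus strand, 6 CG pairs): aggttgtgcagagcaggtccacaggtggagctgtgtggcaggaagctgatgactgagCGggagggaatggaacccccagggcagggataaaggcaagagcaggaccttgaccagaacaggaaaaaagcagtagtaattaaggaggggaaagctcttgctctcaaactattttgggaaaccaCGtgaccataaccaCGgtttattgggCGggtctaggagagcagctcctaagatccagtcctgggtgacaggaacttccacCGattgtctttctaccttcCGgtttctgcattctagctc
Midpoint of the early-early gap (chr3:19224851-19225150, plus strand, 2 CG pairs): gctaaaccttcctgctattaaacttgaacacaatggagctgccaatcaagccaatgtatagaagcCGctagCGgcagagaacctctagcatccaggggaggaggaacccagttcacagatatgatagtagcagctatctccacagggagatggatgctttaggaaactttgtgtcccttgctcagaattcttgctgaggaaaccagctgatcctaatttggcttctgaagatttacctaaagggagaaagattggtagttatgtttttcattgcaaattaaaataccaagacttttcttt

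A further set comes from gaps in which the wrapping domain at the midpoint differed from that on both sides. Shown are the first gene starts by position that had an entry in the promoter table (Nsmaf, in a gap before that of Qdpr, had none) in late-late gaps with a TiNRD between LoNRDs (Dnm3, encoding a dynamin; Gfm1, a mitochondrial elongation factor; Qdpr, a reductase that regenerates tetrahydrobiopterin) and in early-early gaps with a LoNRD between TiNRDs (Magi3, encoding a scaffold protein; Tanc2, a scaffold of synapses; Olfr1535, an olfactory receptor).
Dnm3 (chr1:162477985-162478284, minus strand, 12 CG pairs): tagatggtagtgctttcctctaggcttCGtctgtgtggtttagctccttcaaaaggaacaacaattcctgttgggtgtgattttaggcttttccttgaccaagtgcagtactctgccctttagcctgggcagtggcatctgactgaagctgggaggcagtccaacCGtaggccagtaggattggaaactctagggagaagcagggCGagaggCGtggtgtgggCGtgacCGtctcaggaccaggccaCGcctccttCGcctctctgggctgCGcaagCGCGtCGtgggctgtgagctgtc
Gfm1 (chr3:67429865-67430164, plus strand, 16 CG pairs): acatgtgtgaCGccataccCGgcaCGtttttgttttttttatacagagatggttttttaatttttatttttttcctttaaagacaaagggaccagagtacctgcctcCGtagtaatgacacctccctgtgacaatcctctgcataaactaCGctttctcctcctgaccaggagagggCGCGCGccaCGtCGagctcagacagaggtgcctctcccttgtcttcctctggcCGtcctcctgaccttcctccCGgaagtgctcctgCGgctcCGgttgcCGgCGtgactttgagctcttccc
Qdpr (chr5:45450180-45450479, minus strand, 23 CG pairs): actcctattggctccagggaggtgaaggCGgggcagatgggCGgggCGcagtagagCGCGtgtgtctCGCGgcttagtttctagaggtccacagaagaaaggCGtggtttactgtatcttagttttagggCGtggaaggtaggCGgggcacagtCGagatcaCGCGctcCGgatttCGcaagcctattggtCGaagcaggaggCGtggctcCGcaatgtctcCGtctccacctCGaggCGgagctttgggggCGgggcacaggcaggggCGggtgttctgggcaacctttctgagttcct
Magi3 (chr3:104220357-104220656, minus strand, 26 CG pairs): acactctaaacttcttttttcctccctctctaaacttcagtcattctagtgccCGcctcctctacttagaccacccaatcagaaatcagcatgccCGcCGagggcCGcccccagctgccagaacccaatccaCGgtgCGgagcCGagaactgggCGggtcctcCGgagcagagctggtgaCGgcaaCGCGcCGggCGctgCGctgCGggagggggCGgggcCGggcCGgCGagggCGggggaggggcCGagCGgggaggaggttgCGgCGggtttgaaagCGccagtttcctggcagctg
Tanc2 (chr11:105589736-105590035, plus strand, 57 CG pairs): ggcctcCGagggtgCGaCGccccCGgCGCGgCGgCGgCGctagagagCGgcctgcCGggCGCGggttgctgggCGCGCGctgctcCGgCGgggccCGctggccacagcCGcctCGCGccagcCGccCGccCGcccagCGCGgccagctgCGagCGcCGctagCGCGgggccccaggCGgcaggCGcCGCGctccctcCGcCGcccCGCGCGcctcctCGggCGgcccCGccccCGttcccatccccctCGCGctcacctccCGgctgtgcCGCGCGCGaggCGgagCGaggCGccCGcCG
Olfr1535 (chr13:21555971-21556270, minus strand, 0 CG pairs): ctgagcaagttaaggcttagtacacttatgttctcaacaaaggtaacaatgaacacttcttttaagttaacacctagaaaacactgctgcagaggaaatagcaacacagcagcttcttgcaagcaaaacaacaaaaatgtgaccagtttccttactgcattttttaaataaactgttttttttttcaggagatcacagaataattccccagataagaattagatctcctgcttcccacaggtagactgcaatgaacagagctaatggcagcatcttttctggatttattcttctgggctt
Tanc2 had the most CG pairs of these sequences and Olfr1535 had none, both in early-early gaps. The printed Olfr1535 bases lie downstream of its GENCODE start (chr13:21559893), so their count does not describe that start. Without Olfr1535, the printed promoters of early-early gaps ranged from 4 CG pairs at Gm2026 to 57 at Tanc2. These are the lower quartile of the table and a value over its upper quartile.

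The length of gaps differed with the class of their neighbours. Early-early gaps had a median of 200 kb (quartiles 150 and 250 kb, range 50 to 850 kb), and late-late gaps had the same median of 200 kb (quartiles 100 and 250 kb, range 50 to 950 kb). Mixed gaps were longer, with a median of 450 kb (quartiles 400 and 500 kb), and none was shorter than 250 kb. Of the 371 same-sign gaps, 352 measured at most 300 kb, whereas the shortest RT domain away from a chromosome end measured 350 kb. The shortest gaps, just inside the rule, were the 36 same-sign gaps of 50 kb, the width of 1 window of the RT analysis, and just outside it were the 1177 borders with 0 kb between neighbours. All 1177 touching pairs were of opposite sign, so that no pair of same-sign domains touched, and 50 of the pairs of opposite sign were apart. Early came before late in 26 mixed gaps and late before early in 24.

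**Figure D1:**
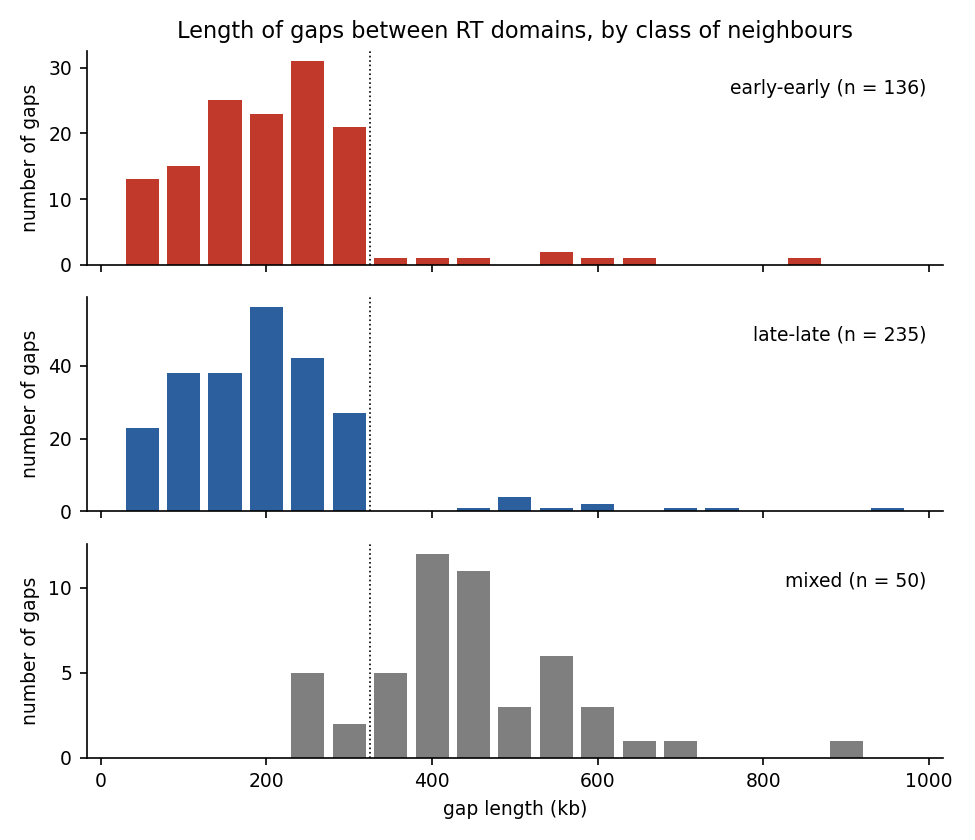
Number of gaps (y axis) by length in kb (x axis, steps of 50 kb) for early-early (n = 136), late-late (n = 235) and mixed gaps (n = 50). The dotted line separates lengths up to 300 kb from those of 350 kb, the shortest RT domain away from a chromosome end, and above: 352 of 371 same-sign gaps lie to its left and 43 of 50 mixed gaps to its right.

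Gaps were found on all 19 autosomes, from 7 on chromosome 19 to 39 on chromosome 1. Per pair of neighbours they were least frequent on chromosome 19 (16.3%) and most frequent on chromosome 13 (31.4%). In all, 725 RT domains bordered a gap, 283 early and 442 late, and 117 of them had a gap on both sides. Early domains next to a same-sign gap (n = 237, the first domain of each chromosome left out) had a median RT value of 0.75 on the log2 scale (quartiles 0.44 and 1.02), and early domains without a gap (n = 475) 0.69 (quartiles 0.45 and 0.92). Late domains next to a same-sign gap (n = 403) had a median of -0.74 (quartiles -0.87 and -0.51), and those without a gap (n = 407) -0.72 (quartiles -0.88 and -0.48). The ranges between quartiles overlapped in both comparisons. The absolute difference in RT value across the gap had a median of 0.29 in early-early, 0.18 in late-late and 1.40 in mixed gaps. The classes differ in this by the rule, which uses the signs, and no same-sign domains without a gap were there to compare with.

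The wrapping domain of a same-sign gap was mostly that of its neighbours' timing. Of the 136 early-early gaps, 108 had their midpoint in a TiNRD (79.4%; exact 95% binomial interval 71.6% to 85.9%), 25 in a LoNRD and 3 in no NRD, beside 82.2% of the 50 kb bins of early RT domains in a TiNRD. Of the 235 late-late gaps, 166 had their midpoint in a LoNRD (70.6%; 64.4% to 76.4%), 65 in a TiNRD and 4 in no NRD, beside 76.0% of the bins of late RT domains in a LoNRD. Mixed gaps lay in between, with 30 of 50 in a TiNRD (60.0%; 45.2% to 73.6%), and so did touching early/late borders, with 61.0% in a TiNRD. Each of these intervals held the background value given beside it. That background depends on the bins counted. At the centres of domains of at least 700 kb, without the first domain of each chromosome, 434 of 479 early windows were in a TiNRD. Of the late windows, 482 of 604 were in a LoNRD. Both shares were higher than in the gaps. The share of early-early gaps in a LoNRD was 18.4% (12.3% to 25.9%), and its interval lay above the 11.4% of early bins. Of the early bins, 6.36% had no NRD, against 2.21% of early-early gaps. The early bins include the first domains of the 19 chromosomes, 15 of which had under 10% assembled bases. The intervals cover counting error only and treat neighbouring gaps as independent. Over length, 75.8% of early-early gaps lay in TiNRDs, 68.9% of late-late gaps in LoNRDs and 64.9% of mixed gaps in TiNRDs.

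**Figure D2:**
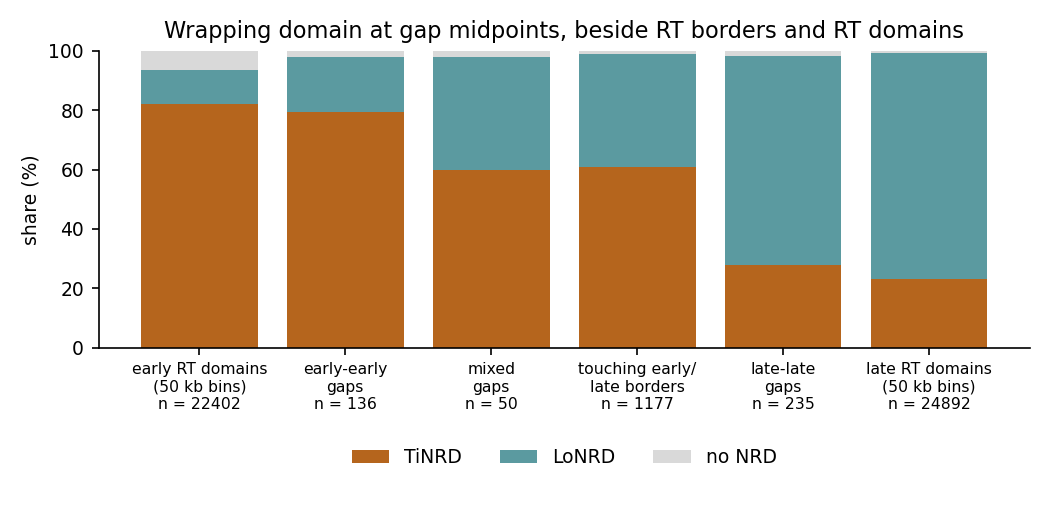
Share (%) of gap midpoints in a TiNRD, a LoNRD or no NRD, beside touching early/late RT borders and the 50 kb bins of early and late RT domains. TiNRDs hold 79.4% of early-early, 60.0% of mixed and 27.7% of late-late gap midpoints, against 82.2% and 23.1% of the bins of early and late domains.

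Of the 421 gaps, 17 overlapped a stretch without an NRD, and in 10 it took at least 50% of the gap. At the midpoint, 2.21% of early-early and 1.70% of late-late gaps had no NRD, beside 6.36% of the bins of early and 0.952% of the bins of late RT domains. Early domains were 94.4% assembled and late domains 99.8%, and the largely unassembled first domains are listed as early. How many of the early bins without an NRD lie in them was not counted. The nearest NRD border was at a median of 825 kb from the midpoint of early-early gaps (quartiles 244 and 1488 kb) and 875 kb in late-late gaps (quartiles 275 and 2138 kb), against 750 kb at the centres of early and of late domains. Mixed gaps had a median of 450 kb, and touching early/late borders 300 kb. A border lay within 200 kb in 24.3% of early-early and 22.6% of late-late gaps, compared with 14.4% and 17.2% at domain centres and 41.7% at touching borders.

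Sequence and genes of each gap were compared with its flanks, up to 500 kb on each side inside the neighbouring domains. For scale, the same comparison was made in domains without regard to gaps: a window of 200 kb at the centre of every RT domain of at least 700 kb (479 early, 604 late; the first domain of each chromosome left out), and a window of 400 kb around the touching borders with room for flanks (1175). In A/T content the centre windows themselves departed from an even split, in the direction opposite to that of the same-sign gaps below. It was lower than in the flanks in 60.1% of early windows and higher in 65.9% of late windows. Early RT domains as a whole had 55.2% A/T, 11.0 CG pairs per kb and 14.9 protein-coding gene starts per Mb, and late RT domains 60.4%, 6.39 and 3.54.

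Early-early gaps were poorer in gene starts, poorer in CG pairs and richer in A/T than the early domains on both sides. They held 192 protein-coding gene starts, 6.73 per Mb (95% Poisson interval 5.81 to 7.75), whereas their flanks held 12.4 per Mb (11.8 to 13.0). The density was lower than in the flanks in 110 of 136 gaps and higher in 25, while 53.0% of the centre windows of early domains were lower. CG pairs were fewer than in the flanks in 113 of 136 gaps, against 36.5% of centre windows, with a median of 8.72 per kb in gaps and 10.3 in flanks. A/T content was higher than in the flanks in 98 of 136 gaps, against 39.9% of centre windows. The A/T difference was small, with a median of 0.804 percentage points (95% interval 0.513 to 1.12). Pooled over each chromosome, A/T content was higher and CG pairs were fewer in early-early gaps than in flanks on all 19 chromosomes, and gene starts were fewer on 17.

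Late-late gaps differed from their flanks in the opposite direction. They held 303 gene starts, 6.57 per Mb (5.85 to 7.36), against 4.06 per Mb (3.80 to 4.33) in the flanks. The density was higher than in the flanks in 100 of the 232 gaps with assembled bases and lower in 91, where 24.3% of centre windows of late domains were higher, and the median difference was 0. By cover of gene bodies the direction turned, with 97 late-late gaps higher than their flanks and 111 lower. CG pairs were more frequent than in the flanks in 154 of 232 gaps, against 35.6% of centre windows. A/T content was lower in 139 of 232 gaps, against 34.1% of centre windows, with a median difference of -0.341 percentage points (95% interval -0.539 to -0.0664). Pooled by chromosome, CG pairs were more frequent on 18 of 19 chromosomes, A/T content was lower on 17 and gene starts were denser on 17.

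Pooled over all gaps, the density of gene starts was 6.73 per Mb in early-early and 6.57 per Mb in late-late gaps, with 12.4 and 4.06 in their flanks. The nearness of the pooled values was lost in gaps with at least 80% unique 31-mers, where early-early gaps (n = 100) had 4 starts per Mb and late-late gaps (n = 159) 6.78, while the 36 early-early gaps under 80% had 15.0. Gene starts were absent from 62 of 136 early-early gaps (45.6%) and from 109 of 235 late-late gaps (46.4%). The change extended past the gap edges. In early-early gaps the 50 kb next to the gap had 7.48 starts per Mb on the left and 6.07 on the right, and at 150 to 200 kb from the gap the densities were 12.7 and 10.4. In late-late gaps the 50 kb next to the gap had 5.43 starts per Mb on each side, and at 150 to 200 kb the densities were 3.49 and 3.86.

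**Figure D3:**
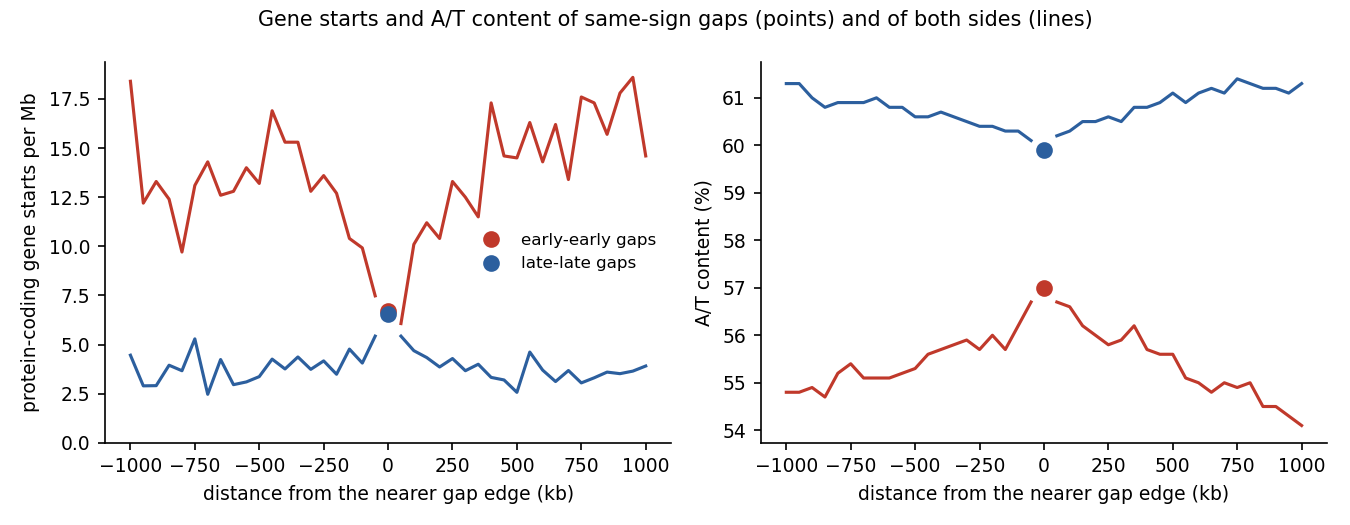
Protein-coding gene starts per Mb (left) and A/T content in % (right) of early-early (red) and late-late gaps (blue). Points at 0 are the gaps themselves, and lines are 50 kb steps inside the neighbouring domains out to 1000 kb from the nearer gap edge. Over all gaps the points of the 2 classes lie at 6.73 and 6.57 starts per Mb (4 and 6.78 in gaps with at least 80% unique 31-mers, not plotted), and A/T content comes nearest at 57.0% and 59.9%.

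The difference was also taken apart by wrapping domain. Late-late gaps in a TiNRD had a median of 9.29 CG pairs per kb against 7.57 in their flanks and were higher in 52 of 63, with gene starts at 9.45 per Mb against 5.78. Late-late gaps in a LoNRD had a median of 5.80 against 5.56 and were higher in 99 of 165, with gene starts at 5.37 per Mb against 3.39. Early-early gaps in a TiNRD had a median of 3.33 gene starts per Mb against 9 in the flanks and were lower in 91 of 108, and those in a LoNRD had 4 against 9.41 and were lower in 16 of 25. Pooled, the LoNRD value was 10.9 against 12.8. Among these gaps, chr4:42200001-42650000 with 0% unique 31-mers and chr9:2950001-3250000 with 41.0% held 9 starts each. The gaps chr2:175950001-176600000 and chr2:175300001-175500000, both with 0% unique 31-mers, held 7 and 4. The 25 early-early gaps in a LoNRD had a median A/T difference of 1.68 percentage points (95% interval 0.446 to 2.79), and the 108 in a TiNRD 0.627 (0.442 to 1.02), so that the intervals overlapped.

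**Figure D4:**
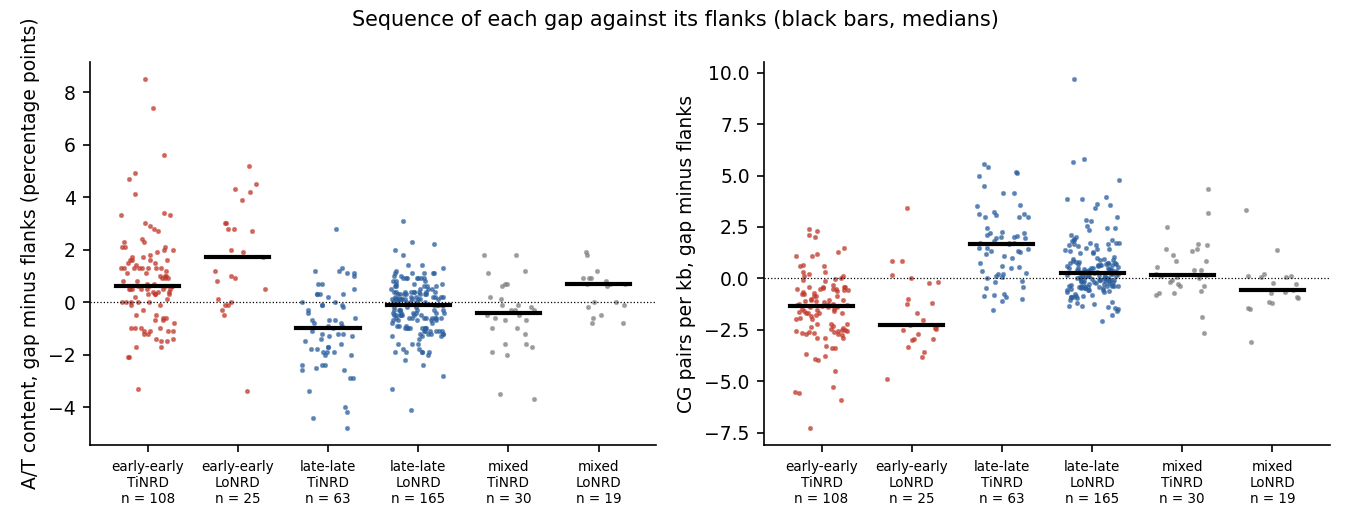
Difference between each gap and its flanks in A/T content (percentage points, left) and in CG pairs per kb (right), by class and wrapping domain at the midpoint. Each point is 1 gap and black bars are medians: CG pairs are lower in early-early gaps (medians -1.34 in TiNRDs and -2.26 in LoNRDs) and higher in late-late gaps in TiNRDs (1.69), with points of every class on both sides of 0.

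Mixed gaps were near their flanks in A/T content and gene starts. Their A/T content was 57.6%, against 57.8% in the flanks, and was higher in 22 and lower in 28 of 50. They held 181 gene starts, 8.20 per Mb (7.05 to 9.49), against 9.82 in the flanks (8.95 to 10.7), and were lower in 29 of 50 (58.0%), where 60.8% of windows at touching borders were lower. Gene starts were absent from 9 of the 50. Gene bodies went the other way, with a cover higher than in the flanks in 28 and lower in 21 (median difference 7.96 percentage points), against -5.46 at touching borders. With flanks of 250 kb the direction of gene starts turned too, and 44.0% of mixed gaps were lower. Masked bases were fewer than in the flanks in 37 of 50 mixed gaps, against 48.5% of windows at touching borders. The flanks of a mixed gap join an early and a late domain, so a gap in between is compared with the mean of both.

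Gene bodies told the classes apart in another way. Protein-coding gene bodies covered 46.2% of early-early gaps, 33.7% of late-late gaps and 45.1% of mixed gaps, with 52.3% in early and 29.5% in late domains. Early-early gaps thus had fewer gene starts than early domains at a cover by gene bodies that was nearer to theirs. A gene body lay over the midpoint of 69 of 136 early-early gaps, with a median gene length of 279 kb, and over 55.7% of the centres of early domains, with a median of 85.8 kb. In 44 early-early gaps (32.4%) the gene at the midpoint was at least 200 kb long, against 12.5% of the centres of early domains. In late-late gaps the order was the reverse, with a median of 147 kb for the 70 gaps with a gene at the midpoint and of 408 kb at the centres of late domains.

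In 25 early-early gaps (18.4%) the whole gap lay inside the body of a protein-coding gene, against 5.22% of the centre windows of early domains. Window lengths differ here, since gaps ranged from 50 kb upwards and the windows were 200 kb. The longest such genes, named after their values were seen, were Camta1 (945 kb), encoding a transcription activator that binds calmodulin, Immp2l (931 kb), a subunit of the inner membrane peptidase of mitochondria, Cdkal1 (664 kb), a tRNA methylthiotransferase, and Ank3 (629 kb), the ankyrin of the axon initial segment. The gap in Camta1 was chr4:151450001-151550000, between domains with RT values of 1.21 and 1.49. The gap in Ank3 was chr10:69550001-69800000, between RT values of 0.37 and 0.56. Of late-late gaps 13 (5.53%) lay inside a gene, against 12.1% of the centre windows of late domains, among them gaps in Ptprd (2271 kb) and Ctnna3 (1574 kb), genes for a receptor phosphatase and a catenin. No mixed gap lay inside a gene.

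Promoters in the gaps followed the same pattern. Of the protein-coding genes that start in early-early gaps, 139 were in the RefSeq promoter table, and 28.1% of their promoters had at least 10 CG pairs in 300 bases, against 68.7% of promoters in early RT domains. In late-late gaps 226 were in the table and 48.2% had at least 10 CG pairs, against 30.0% in late RT domains. In mixed gaps the share was 52.0% of 125, with 59.9% over all autosomal promoters. The median was 4 CG pairs in early-early, 8 in late-late and 10.0 in mixed gaps. Promoters of a gene cluster are not independent, and 1 gap can give many of them.

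The 5 longest early-early gaps held genes of varied kinds. The longest, chr3:18800001-19650000 (850 kb, TiNRD), lay between RT values of 0.19 and 0.31 and held the starts of Armc1, Mtfr1, the phosphodiesterase gene Pde7a, Dnajc5b, 1700064H15Rik and Trim55. The next, chr2:175950001-176600000 (650 kb), in a LoNRD with a wrapping index of -1.86, held 7 gene starts, Gm2026, Gm2004, 2210418O10Rik, Gm11009, Gm14435 and Gm14434 among them. In this gap 38.5% of bases were unassembled and 0% of sampled 31-mers were unique in the genome. The gap chr19:24600001-25200000 (600 kb, TiNRD) held Tmem252, Pgm5, Gm10053, the forkhead gene Foxd4, Cbwd1 and Dock8. The gap chr13:58750001-59300000 (550 kb, TiNRD) held only the start of Ntrk2, the receptor for brain-derived neurotrophic factor, whose body covered the midpoint. The gap chr6:52900001-53450000 (550 kb, TiNRD) held Jazf1 and Creb5, and its neighbours had RT values of 0.92 and 0.38.

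The longest late-late gap, chr1:192700001-193650000 (950 kb), lay in a TiNRD with a wrapping index of 0.86, between RT values of -0.23 and -1.06. It held 11 gene starts, including Hhat, Sertad4, Syt14, Diexf and A130010J15Rik, with 8.42 CG pairs per kb against 6.33 in the flanks. The gap chr6:68700001-69450000 (750 kb, LoNRD) held no protein-coding start but 24 V segments of the immunoglobulin kappa locus, and 55.5% of its 31-mers were unique. The gap chr18:7550001-8250000 (700 kb, LoNRD) held Mpp7 and Wac, between neighbours with RT values of -0.52 each. The gap chr6:32700001-33300000 (600 kb, TiNRD) held Chchd3, a subunit of the mitochondrial contact site complex, and Exoc4, a subunit of the exocyst. The gap chr9:38350001-38950000 (600 kb, LoNRD) held 27 gene starts, 26 of them olfactory receptor genes, the most in any late-late gap.

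Among mixed gaps the longest was chr17:22000001-22900000 (900 kb, LoNRD), between RT values of 0.53 and -0.27. It held 9 gene starts, of which 6 were zinc finger genes (Zfp947, Zfp994, Zfp944, Zfp758, Zfp946 and Zfp945), and 61.6% of its 31-mers were unique. The gap chr9:49350001-50050000 (700 kb, TiNRD) held Ankk1, Ttc12 and Ncam1, the gene for a neural cell adhesion molecule. The gap chr2:11750001-12400000 (650 kb, LoNRD) held Fbh1, Ankrd16 and the integrin gene Itga8. The gap chr5:72050001-72650000 (600 kb, TiNRD) rose from an RT value of -1 to 0.64 and held Commd8, Corin, Nfxl1, the oocyte gene Zar1, Gm5868 and Cnga1, a channel subunit of rod cells. The gap chr6:22300001-22900000 (600 kb, LoNRD) rose from -0.97 to 0.36 and held Fam3c and Ptprz1.

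Over all autosomes, 676 of 20807 protein-coding genes (3.25%) started in a gap. Gene families and other lists are given beside this share, with no test. Olfactory receptor genes had 66 of 1128 in gaps (5.85%), 16 in early-early, 34 in late-late and 16 in mixed gaps. They sat in 8 gaps, among them chr7:107900001-108250000 (mixed) with 14 and chr7:140350001-140550000 (early-early, TiNRD, between RT values of 1.05 and 1.07) with 7. Vomeronasal receptor genes had 19 of 327 (5.81%), 11 of them in the mixed gap chr13:22700001-23100000. Zinc finger genes had 19 of 385 (4.94%), all 19 with Zfp symbols. The list leaves out zinc finger genes with other symbols, such as Zbtb14 in a late-late gap. Of immunoglobulin and T cell receptor segments, 64 of 457 lay in gaps (14.0%), 42 of them in late-late gaps. These segments are not counted among the protein-coding genes, so the 3.25% is not their background. The late-late gaps chr6:68700001-69450000 and chr6:69950001-70250000 held 24 and 13 of them.

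Histone genes had 11 of 71 in gaps (15.5%), and all 11 shared the mixed gap chr13:23700001-24100000 (400 kb, TiNRD), which includes Hist1h1c, Hist1h3c, Hist1h2bb and Hist1h2ab and passes from an RT value of 0.84 to -0.28. Of a list of developmental factors with Hox, Sox, Pax, Fox, Tbx, Lhx, Irx and Nkx symbols, which leaves out other homeobox genes such as Meis1 and Dlx5, 14 of 147 started in gaps (9.52%), and of the list only Foxd4 in an early-early one. The 7 in late-late gaps included Sox11, Foxa1 and Foxa2, factors of neural and endodermal development. Sox11 lay in chr12:27200001-27400000 (TiNRD, RT values of -0.71 and -1.09) and Foxa2 in chr2:147950001-148100000 (TiNRD, -0.42 and -0.64), each as the only protein-coding start of its gap. The 6 in mixed gaps included Lhx9, Sox9, Pax4 and Sox5. The gap with Sox9, chr11:112750001-113150000, had 52.7% A/T and lay in a TiNRD with a wrapping index of 1.49.

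The remaining lists had at most 6 members each in gaps, with shares on both sides of the 3.25% of all protein-coding genes. Cytochrome P450 genes had 6 of 100 (6.00%), including Cyp2b13, Cyp2b9 and Cyp2a4 in the early-early gap chr7:26050001-26450000, which lay in a LoNRD between RT values of 1.60 and 1.62. Serpin genes had 5 of 60 (8.33%), 4 of them in the late-late gap chr13:32950001-33150000. Defensin genes had 2 of 64 (3.12%). Cadherin and protocadherin genes had 1 of 90 (1.11%, Cdh17, in a mixed gap), and cytosolic ribosomal protein genes 1 of 81 (1.23%, Rps23, in a late-late gap). None of 21 core pluripotency factor genes and none of 25 genes of the 2C-like state started in a gap.

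In a small set of same-sign gaps the wrapping list changed sign at the same place. With the neighbours read at 250 kb from the gap, 7 early-early gaps had a LoNRD at the midpoint between TiNRDs on both sides (5.15% of 136), against 1.88% of the centres of early domains. In turn 11 late-late gaps had a TiNRD between LoNRDs (4.68% of 235), against 0.497% of the centres of late domains. Most gaps showed no such change: 91 early-early gaps were in a TiNRD with TiNRDs on both sides and 149 late-late gaps in a LoNRD with LoNRDs on both sides. A further 30 late-late gaps (12.8%) were in a TiNRD with TiNRDs on both sides, against 13.7% of late centres. LoNRDs at the midpoint and on both sides were found in 7 early-early gaps (5.15%), against 3.97% of early centres. The NRDs at the 18 gaps were short, 300 to 400 kb in the early-early and 300 to 600 kb in the late-late gaps, next to a shortest NRD of 300 kb. Their wrapping indices ran from -0.40 to -0.14 and from 0.05 to 0.74. Since these gaps were picked for their wrapping calls, the counts are a description.

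The sequence of these 18 gaps is likewise a description, since in every class gaps in TiNRDs had less A/T than gaps in LoNRDs: 56.4% against 59.5% in early-early, 56.9% against 61.3% in late-late and 56.1% against 59.8% in mixed gaps. A/T content was higher than in the flanks in all 7 early-early gaps and lower in all 11 late-late gaps, and CG pairs were fewer in all 7 and more frequent in all 11. The share of unique sequence was also lower than in the flanks in all 7 early-early gaps. It was 72.5% against 88.0% at chr9:55650001-55850000 and 88.3% against 91.8% at chr10:44800001-44950000. In the 11 late-late gaps this share was mostly higher than in the flanks, but at chr4:6400001-6550000 it was lower (79.7% against 84.3%). The part of unique sequence in the wrapping calls at these gaps was not tested. The 11 late-late gaps held 40 gene starts, with at least 1 in each gap, and the 7 early-early gaps held 7 starts in 4 gaps, with 0 to 4 in a gap. The largest step among the late-late gaps was at chr15:66900001-67150000, the gap with the start of Ndrg1, with 53.5% A/T against 58.3% in the flanks. The TiNRD at this gap had a wrapping index of 0.74. At chr3:67400001-67600000, with Gfm1, Lxn, Rarres1 and Mfsd1, A/T content was 55.9% against 60.3%, and CG pairs were 12.7 per kb against 7.15. At chr5:98100001-98350000, with Prdm8, Cfap299 and the growth factor gene Fgf5, CG pairs were 12.3 per kb against 7.31. The smallest step was at chr9:52000001-52100000, with Rdx, the gene for radixin, at 58.8% A/T against 58.9%.

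Among the 7 early-early gaps, chr3:104050001-104250000, with the start of Magi3, had 61.5% A/T against 56.3% in the flanks, between RT values of 0.90 and 0.78. The gap chr9:55650001-55850000 lay wholly inside Scaper, without a gene start, at 61.9% A/T against 57.6%. The gap chr11:105500001-105750000, with the start of Tanc2, had 60.3% against 56.1%, so that the CG-rich promoter printed above stood in a gap that was poorer in CG pairs than its flanks (6.90 against 10.5 per kb). The gap chr13:21550001-21650000 held 4 olfactory receptor genes and 61.1% A/T against 58.1%. Promoters of the late-late gaps likewise ranged from 3 CG pairs at Rdx to 26 at Tspan13. Genes of these 18 gaps were named after their values were seen. A/T content differed between early and late domains over the whole list, and the part of sequence in the wrapping calls or the RT calls at these gaps was not tested.

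**Figure D5:**
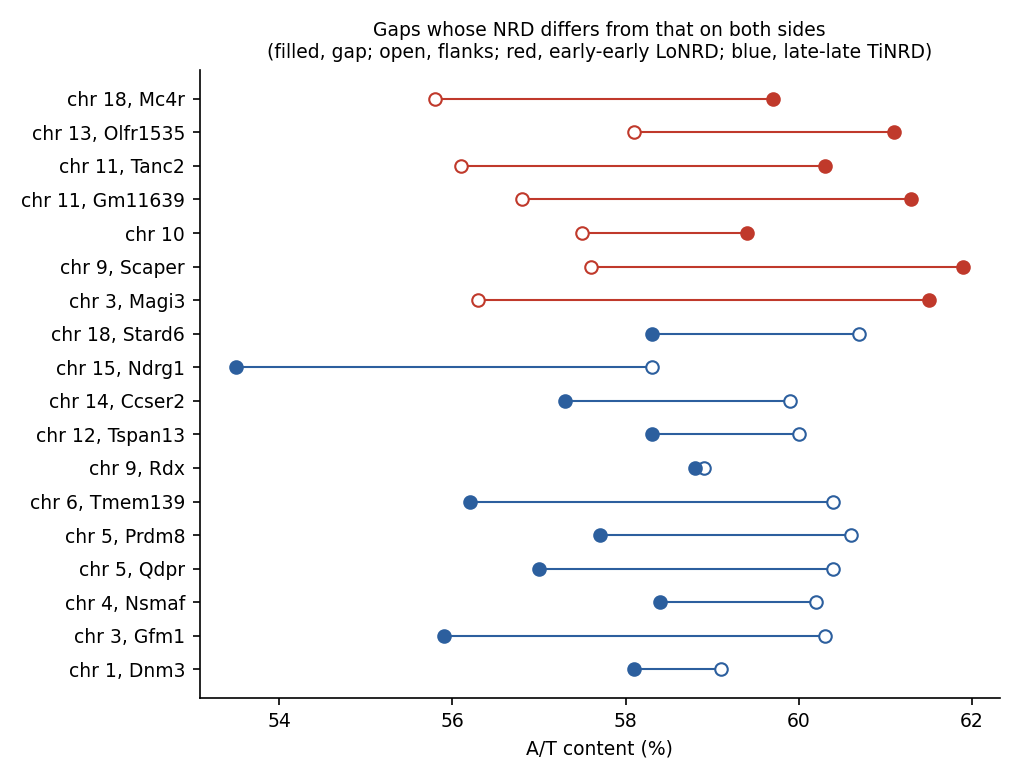
A/T content (%) of the 18 same-sign gaps whose wrapping domain differed from that on both sides (filled) and of their flanks (open), each with its chromosome and the first protein-coding gene that starts in it or covers its midpoint (1 gap, on chromosome 10, has neither). In the 7 early-early gaps (red, LoNRD) the filled point is to the right of the open one, and in the 11 late-late gaps (blue, TiNRD) to the left.

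Reads of low mapping quality had been removed, so the share of unique sequence was measured in each gap, though its part in the placing of gaps was not tested. The share of sampled 31-mers found at a single place of the genome had a median of 89.0% in early-early gaps (difference from flanks -1.08 percentage points, 95% interval -3.45 to 0.867), 85.2% in late-late gaps (1.45, 0.250 to 3.05) and 89.6% in mixed gaps (1.81, 0.574 to 3.61). The early-early value differed by wrapping domain. Early-early gaps in a LoNRD had a median difference of -6.53 percentage points (95% interval -8.65 to -3.45) and were lower in 21 of 25. Those in a TiNRD had a median difference of 0.575 (-1.75 to 1.42). In 28 gaps the share was under 50%, 13 early-early, 14 late-late and 1 mixed. These included copies of gene clusters, such as Ccl21b and its neighbours at chr4:42200001-42650000 (0% unique), Vmn2r46 and Vmn2r47 at chr7:9650001-9850000 (0%) and Scgb2b15 at chr7:32450001-33000000 (3.55%). In 14 gaps over 10% of bases were unassembled. Early-early gaps with at least 80% unique 31-mers (n = 100) had 4 gene starts per Mb against 9.79 in their flanks, and those under 80% (n = 36) 15.0 against 20.0. Late-late gaps with at least 80% (n = 159) had 6.78 against 3.29, and those under 80% (n = 72) 6.13 against 5.55. The direction was thus the same in gaps of mostly unique sequence. The first RT domain of 15 autosomes had under 10% assembled bases and was nevertheless listed as early, and 8 of these adjoined a gap, so the class of those 8 gaps rests on a domain with almost no assembled sequence. Without the gaps next to a first domain, 78.9% of early-early gaps were in a TiNRD, 80.5% had fewer gene starts than their flanks and the median A/T difference was 0.817 percentage points.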

How the data were processed

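R1 mouse ES cells were profiled by H3 wrapping-seq (4 libraries) and by BrdU labelling and sorting into S1 to S4 (8 libraries). The authors trimmed reads with cutadapt 4.3, aligned them to mm10 with Bowtie2 2.5.1, left out duplicate and poorly mapping reads, and called domains with homer2. The deposited NRD value is a score, the wrapping index over 100 kb bins. The deposited RT value is a log2 ratio over 50 kb windows after quantile normalization. How domain values were made from bins, and whether replicates were pooled, is not given in the sources used here. Only signs and places were used, except where a value is printed. Neither list holds read numbers, so the depth is unknown.

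Gaps were taken on chromosomes 1 to 19. The NRD was read at the midpoint, and 7 midpoints on an NRD border were given the NRD that starts there, if any. A/T content, CG pairs, lower-case (repeat-masked) bases and 31-mers, sampled every 500 bp and counted over both strands of all chromosomes, came from GRCm38.p6 in 50 kb bins, and gene starts from GENCODE vM21. Shares have exact binomial intervals, medians intervals from order statistics and gene densities exact Poisson intervals, all at 95% and for counting error only. Python 3.11.15, numpy 2.4.6, pandas 2.3.3, scipy 1.17.1, numba 0.67.0 and matplotlib 3.10.9 were used. On simulated chromosomes with 256 gaps all 256 were recovered.

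The gaps, the gene lists and the tables were chosen with earlier results of these data known. Named were the 5 longest gaps of each class and the longest with a protein-coding start in each wrapping domain, with up to 6 genes by position, and up to 4 members of each gene list; some genes that this rule names are not reported here.
The centre windows, the gaps with a changed wrapping domain and the genes that enclose a gap were added after the data were seen. Alternatives were chromosome X, other minimum lengths of gaps and NRDs, other flanks, sequence outside repeats, gaps of unique sequence, and gaps away from the first domain of a chromosome.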

Additional observations from a re-analysis of the deposited data

How the results depend on the processing

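27 results were recomputed under alternatives, which gave 85 values. Of these, 77 stayed within the interval of the value in the report or, for counts, within 1.5 times. With flanks of 100 kb the median A/T difference of early-early gaps was 0.410 percentage points in place of 0.804. With gene bodies in place of gene starts, the direction turned in 2 classes: 42.0% of mixed gaps were lower than their flanks against 58.0% by starts, and 41.3% of late-late gaps were higher, fewer than were lower, against 43.1% by starts. With flanks of 250 kb mixed gaps turned as well, with 44.0% lower. By gene bodies 54.4% of early-early gaps were lower, against 80.9%. With gaps of at least 80% unique 31-mers only, an alternative added after the data were seen, 51.6% of late-late gaps had more gene starts than their flanks, against 43.1%. Requiring 50% of a gap without an NRD left 10 gaps of 17. With neighbours read at 500 kb, also added later, 17 late-late gaps had a TiNRD between LoNRDs in place of 11. The causes of these shifts were not tested. No paired analysis was possible because the lists hold no replicates and no result comes from a test. Places of gaps are limited by the 50 kb windows and those of the NRDs by smoothing of the wrapping index, and the precision of a gap between libraries is unknown.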

Other observations

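Chromosome X, left out above, had 47 gaps among 127 pairs of neighbouring RT domains (37.0%), against 26.3% on the autosomes. By class 7 were early-early, 30 late-late and 10 mixed, with a median length of 200 kb. Of the late-late gaps, 24 had their midpoint in a LoNRD and 6 in a TiNRD, and of the early-early gaps 4 were in a TiNRD and 3 in a LoNRD.

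All 19 autosomes opened with a domain listed as early, with RT values from 0.28 to 0.98 on the log2 scale. In 15 of them under 10% of the bases were assembled.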
